A study of Homo sapiens with 16 samples.

Results

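The genes described here are 38 members of the homologous recombination and Fanconi anemia pathways, listed by name for their known roles in DNA repair, out of 18332 genes in the deposited table. Their transcripts were measured by RNA sequencing in MDA-MB-231 cells and in MDA-MB-468 cells, 2 established lines from human breast cancers, both labelled ER negative, which means that they lack the estrogen receptor. For 48 h each line was held at 5 mM (control, called low glucose) or at 25 mM (called high glucose, a stand-in for hyperglycemia), with 4 replicates in each of the 4 groups and 16 samples in all. The study's methods describe serum-free medium in both arms and cells conditioned in low glucose beforehand. They give different base media for growing the lines (DMEM for MDA-MB-231, RPMI for MDA-MB-468), so that line and growth medium cannot be told apart. The base medium during the 48 h is not stated for each line, and the study's reagents include low and high glucose media as DMEM only. The methods mention mannitol as an osmotic control in some experiments, the labels name none for these samples, and here the added sugar cannot be told apart from the added osmolarity. Nothing in the labels says that the replicates came from separate cultures, and the p-values measure the spread between these samples only.

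Homologous recombination repairs a broken chromosome by copying the sister chromatid. The MRE11-RAD50-NBN complex and the kinases ATM and ATR sense the damage, BRCA1 and its partners promote the trimming of the ends, BRCA2 and PALB2 prepare the exposed strand for pairing, and helicases and nucleases resolve the joined molecules. The Fanconi pathway adds the repair of cross-linked DNA strands through a core complex that attaches ubiquitin to FANCD2 and FANCI, and inherited loss of BRCA1, BRCA2 or PALB2 predisposes to breast cancer. Many of these genes are transcribed most strongly when cells enter S phase.

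The deposited values are read counts scaled to library size, called normalized read counts below. Reads recovered from them summed to between 14094597 and 24425916 per library over the deposited genes, which is not the full sequencing depth. The line labels were checked against marker genes. The mesenchymal marker VIM lay between 89664 and 99379 in MDA-MB-231 samples and between 15.8 and 35.4 in MDA-MB-468 samples, and the epithelial marker CDH1 between 4.29 and 10.7 and between 1941 and 2139. EGFR, amplified in MDA-MB-468, lay between 58085 and 64730 there and between 8210 and 9304 in MDA-MB-231. CD44, listed as a marker of MDA-MB-231, was instead higher in MDA-MB-468 (24077 to 26299, against 15793 to 18406). ESR1, the estrogen receptor gene, lay between 0 and 2.92 in MDA-MB-231, whereas MDA-MB-468 held a low level of 38.2 to 69.7.

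All 38 members passed the filter on low values in both lines, with at least 0.5 CPM in 2 or more samples. In MDA-MB-231, 15 members (39.5%) fell and 1 (2.63%) rose in high glucose at an adjusted p under 0.05 (limma, Benjamini-Hochberg over 14884 genes), where 9.37% of all genes tested fell and 5.71% rose. In MDA-MB-468, 17 members (44.7%) fell and 3 (7.89%) rose, where 22.7% of the 15757 genes tested fell and 24.9% rose. The median log2 fold change of the members was -0.18 for MDA-MB-231 and -0.14 for MDA-MB-468, beside medians over all tested genes of 0.0017 and 0.00011. In both lines the called changes were moderate, with a median size on the log2 scale of 0.36 for MDA-MB-231 and 0.38 for MDA-MB-468, and the largest were 0.58 and 0.74. These are bulk samples, in which fewer cells of a kind, for example fewer cells in S phase, and less RNA per cell cannot be told apart.

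Of the members that fell, 9 were the same genes in both lines (9 of 15 and 9 of 17), namely BRCA1, BRCA2, RBBP8, MRE11, XRCC2, RAD54B, FANCD2, FANCI and BRIP1. Over all genes, 3.02% of the 13573 genes tested in both lines fell in both. MRE11, XRCC2 and RAD54B dropped out of the 9 with DESeq2, which left 6, and MRE11 and XRCC2 with the replicate block or the length correction, which left 7. BRCA1, BRCA2, FANCD2, FANCI and BRIP1 were the 5 left at an adjusted p under 0.01. The within-line contrasts share no samples. A further 6 members fell in MDA-MB-231 and were not called in MDA-MB-468 (BARD1, XRCC3, RAD54L, FANCA, FANCG and BLM), and 7 fell in MDA-MB-468 and were not called in MDA-MB-231 (ATM, PALB2, RAD51C, FANCC, TOP3A, SLX4 and EME1). RAD50 alone of the 38 was called in opposite directions. FANCE, RMI2 and MUS81 rose in MDA-MB-468 and were not called in MDA-MB-231, and 12 members were called in neither line.

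**Figure D1:**
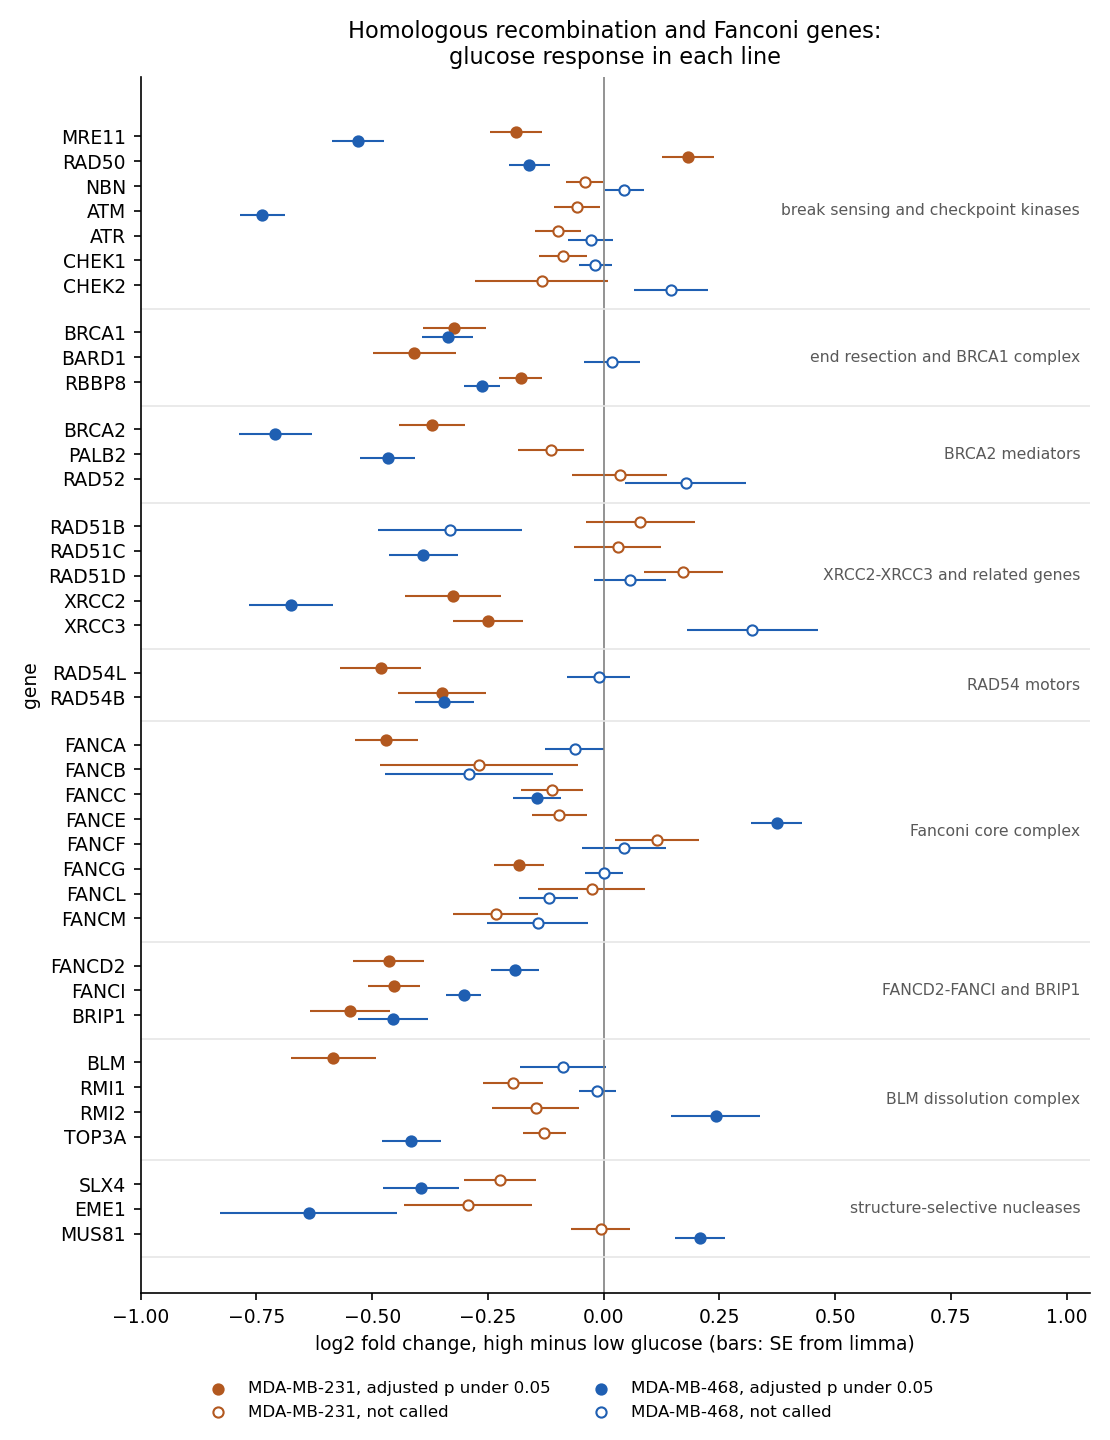
Log2 fold change in high against low glucose (horizontal axis, bars are the SE from limma, n = 4 per group) for each of the 38 members in MDA-MB-231 (brown) and MDA-MB-468 (blue), grouped by role; filled points passed an adjusted p under 0.05. The points lie mostly left of 0 in both lines, all 3 genes of the FANCD2-FANCI and BRIP1 group are filled in both, and the lowest point is ATM in MDA-MB-468 at -0.74.

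Among the members that fell in both lines, BRCA2, BRIP1, XRCC2 and FANCI had the largest summed changes, and the start-site regions of the first 3 are shown as the sequence from which these transcripts start. Each runs from 250 bases before to 50 bases after the start site (RefSeq, GRCh38.p14), on the coding strand, and RefSeq regions were matched for 34 of the 38 members. Capitals mark matches, on either strand, to E2F-type letters (TTTCCCGC, TTTGGCGC, TTTCGCGC or TTTGCCGC), to CHR letters (TTTGAA or TTCGAA) and to CCAAT, motifs known from promoters of genes of the cell cycle. The BRIP1 region (chr17:61863479-61863778, minus strand) holds 1 CHR match and 3 CCAAT matches, the XRCC2 region (chr7:152676092-152676391, minus strand) holds 1 E2F-type match, and the BRCA2 region (chr13:32315258-32315557, plus strand) holds none of the 3.
BRCA2: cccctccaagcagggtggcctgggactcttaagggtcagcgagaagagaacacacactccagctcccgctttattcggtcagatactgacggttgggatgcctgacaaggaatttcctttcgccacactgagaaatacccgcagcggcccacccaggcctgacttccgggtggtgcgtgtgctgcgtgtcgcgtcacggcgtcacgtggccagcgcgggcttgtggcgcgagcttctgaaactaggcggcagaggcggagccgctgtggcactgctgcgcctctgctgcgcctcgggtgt
BRIP1: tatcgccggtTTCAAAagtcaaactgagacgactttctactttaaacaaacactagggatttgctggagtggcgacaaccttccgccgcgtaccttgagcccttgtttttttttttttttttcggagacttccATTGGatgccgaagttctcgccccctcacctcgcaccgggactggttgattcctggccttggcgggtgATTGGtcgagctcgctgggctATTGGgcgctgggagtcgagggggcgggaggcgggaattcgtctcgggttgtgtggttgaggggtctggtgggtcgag
XRCC2: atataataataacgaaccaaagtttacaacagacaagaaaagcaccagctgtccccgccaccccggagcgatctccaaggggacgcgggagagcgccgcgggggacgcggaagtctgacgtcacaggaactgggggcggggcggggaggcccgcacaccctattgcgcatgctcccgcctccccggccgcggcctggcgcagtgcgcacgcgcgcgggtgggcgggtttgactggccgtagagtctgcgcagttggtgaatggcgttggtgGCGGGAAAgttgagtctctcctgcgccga
Of the 34 matched members, 4 (11.8%) held E2F-type letters, namely FANCA, FANCC, FANCD2 and XRCC2, beside 3.31% of 35116 promoters. Those promoters outnumber the 18332 genes measured, so the shares over all promoters are not limited to genes of these samples. CHR letters were found in 3 members (8.82%, ATM, BRIP1 and FANCC) beside 16.4% of all promoters, and CCAAT in 14 members (41.2%) beside 34.6%. A match is a description of the letters only.

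The counts by role that follow stand beside shares over all genes tested of 9.37% lower and 5.71% higher in MDA-MB-231. For MDA-MB-468 these shares were 22.7% lower and 24.9% higher. With 2 to 8 genes per group, the counts were not tested against these shares. The first group by role is that of break sensing and the checkpoint kinases (7 genes), of which 1 member fell and 1 rose in MDA-MB-231, and 3 fell in MDA-MB-468. ATM, the kinase activated by double-strand breaks, has the longest transcript of all members (12915 nt, 63 exons, chr11:108093771-108239829 on GRCh37). In MDA-MB-468 its normalized read counts were 1283, 1325, 1294 and 1359 in low glucose and 756, 877, 760 and 766 in high glucose. The lowest low-glucose sample lay far above the highest high-glucose sample, and the log2 fold change was -0.74 ± 0.05 (SE, n = 4 per group, adjusted p = 4.5e-09). In MDA-MB-231 the counts were 1105, 1119, 1104 and 1210 against 1036, 1145, 1160 and 1022. Those groups overlapped, the log2 fold change was -0.058 ± 0.05 (adjusted p = 0.503), and the difference between the lines of -0.68 ± 0.07 was the largest among the members (adjusted p = 2.9e-06). MRE11, the nuclease of the break-sensing complex (6841 nt, chr11:94148736-94227051), fell in MDA-MB-468 from 419, 467.8, 455 and 460 to 317, 314, 309 and 306 (log2 fold change -0.53 ± 0.06, adjusted p = 9.5e-07). Its MDA-MB-231 values of 479, 438, 446 and 471 against 415, 403, 415 and 377 also did not overlap, but the change was smaller (-0.19 ± 0.06, adjusted p = 0.032). RAD50, the ATPase that holds the broken ends (8272 nt), counted 839, 737, 786 and 907 in low and 890, 967, 923 and 921 in high glucose in MDA-MB-231 (0.18 ± 0.06, adjusted p = 0.0359). The MDA-MB-468 samples held 1343, 1461, 1276 and 1425 against 1264, 1251, 1204 and 1199 (-0.16 ± 0.04, adjusted p = 0.00652). The groups overlapped in MDA-MB-231 and not in MDA-MB-468, and the responses differed by -0.34 ± 0.08 (adjusted p = 0.00275).

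The other 4 genes of that group were called in neither line. NBN, the signalling subunit of the complex (4622 nt), had log2 fold changes of -0.041 (MDA-MB-231) and 0.045 (MDA-MB-468). ATR, the kinase of stalled replication forks (8158 nt), had -0.099 and -0.028. CHEK1, its effector kinase (4128 nt), had -0.088 and -0.018, and CHEK2, the effector of ATM (1844 nt), had -0.13 ± 0.14 and 0.15 ± 0.08. In MDA-MB-468 a fall of ATM thus stood beside no call for ATR.

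In the group of end resection and the BRCA1 complex, all 3 members fell in MDA-MB-231 and 2 of 3 in MDA-MB-468. BRCA1, the ubiquitin ligase subunit that promotes resection (7088 nt, 23 exons, chr17:41196312-41322262), counted 344, 318, 352 and 378 in low glucose and 267, 271, 274 and 300 in high glucose in MDA-MB-231. In MDA-MB-468 it counted 731, 780, 669 and 781 against 615, 582, 583 and 559. In each line all high-glucose samples lay below all low-glucose samples, with log2 fold changes of -0.32 ± 0.07 (adjusted p = 0.00367) and -0.34 ± 0.06 (adjusted p = 9.2e-05) that differed by -0.015 ± 0.09 (adjusted p = 0.922). RBBP8, the resection factor CtIP (3275 nt), fell in both lines, with log2 fold changes of -0.18 ± 0.05 and -0.26 ± 0.04 (adjusted p = 0.0131 and 3.0e-05). BARD1, the ring-finger partner of BRCA1 (5478 nt), fell in MDA-MB-231 (-0.41 ± 0.09, adjusted p = 0.00461) and had 0.018 ± 0.06 in MDA-MB-468 (adjusted p = 0.828). The difference between lines for BARD1 passed the test (0.43 ± 0.12, adjusted p = 0.0118), whereas its partner BRCA1 fell in both.

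Among the BRCA2 mediators, 1 of 3 fell in MDA-MB-231 and 2 of 3 in MDA-MB-468. BRCA2, the mediator that acts on exposed single strands (11954 nt, 27 exons, chr13:32889223-32974405), held 379, 408, 408 and 487 normalized reads in low glucose and 320, 324, 314 and 337 in high glucose in MDA-MB-231. It held 581, 580, 574 and 552 against 311, 429, 325 and 343 in MDA-MB-468. High-glucose samples were lower throughout, and high-glucose replicate 2 of MDA-MB-468 lay above its 3 companions. The log2 fold changes were -0.37 ± 0.07 (adjusted p = 0.00165) and -0.71 ± 0.08 (adjusted p = 1.7e-06). PALB2, which joins BRCA1 to BRCA2 (4008 nt, chr16:23614481-23652642), fell in MDA-MB-468 from 392, 432, 387 and 413 to 297, 284, 300 and 293 (-0.47 ± 0.06, adjusted p = 6.5e-06). In MDA-MB-231 its 294, 259, 296 and 303 against 272, 246, 268 and 277 overlapped (-0.11 ± 0.07, adjusted p = 0.325), and the lines differed (-0.35 ± 0.08, adjusted p = 0.0033). RAD52, the annealing factor that works beside BRCA2 (3023 nt), had 0.034 ± 0.10 and 0.18 ± 0.13 and was called in neither.

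**Figure D2:**
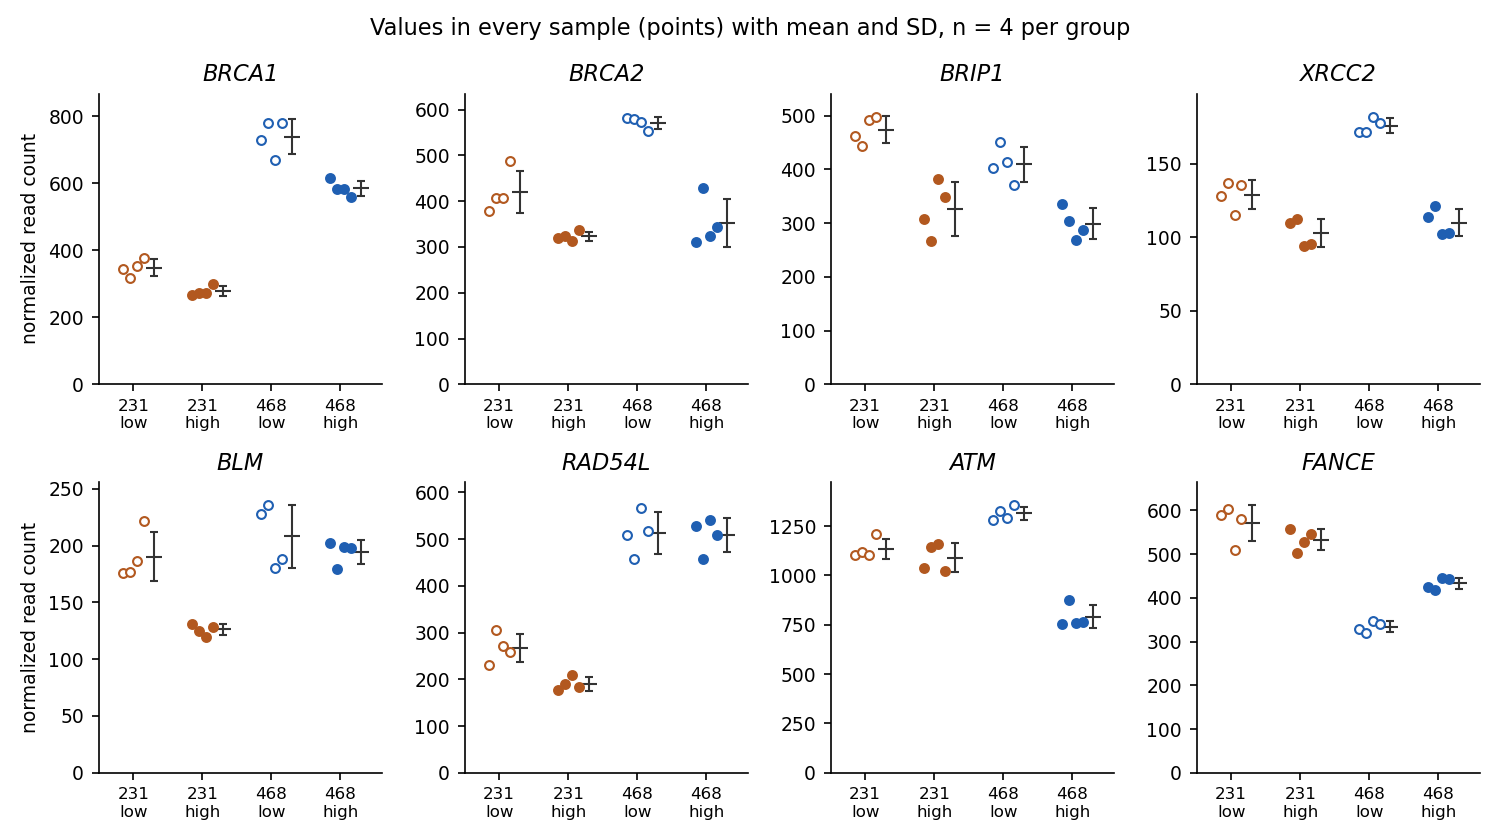
Normalized read count (vertical axes, from 0) of 8 members in every sample of the 4 groups (points; brown MDA-MB-231, blue MDA-MB-468; open low glucose, filled high glucose) with the mean and SD beside them, n = 4. BRCA1, BRCA2, BRIP1 and XRCC2 are lower in high glucose without overlap in both lines, BLM and RAD54L in MDA-MB-231 only, ATM in MDA-MB-468 only, and FANCE is higher in high glucose in MDA-MB-468.

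XRCC2, XRCC3 and 3 related genes support the pairing of DNA strands, and 2 of the 5 fell in each line. XRCC2 (4771 nt, 3 exons, chr7:152341861-152373278) counted 128, 137, 115 and 136 against 110, 113, 93.8 and 95.1 in MDA-MB-231, and 172, 171, 182 and 178 against 114, 121, 102 and 103 in MDA-MB-468. Neither pair of groups overlapped, and the log2 fold changes were -0.32 ± 0.10 (adjusted p = 0.0434) and -0.68 ± 0.09 (adjusted p = 1.2e-05). XRCC3 (2567 nt, chr14:104163946-104181841) counted 360, 371, 413 and 335 against 290, 304, 300 and 349 in MDA-MB-231 (-0.25 ± 0.08, adjusted p = 0.0319), where the groups overlapped. In MDA-MB-468 it counted 101, 65.3, 77.9 and 86.2 against 86.5, 111, 118 and 96.1 (0.32 ± 0.14, adjusted p = 0.0735). The direction thus differed in sign between the lines, and that difference passed the test (0.57 ± 0.17, adjusted p = 0.0188). However, the exons of all annotated XRCC3 transcripts share 5756 bases with KLC1 on the opposite strand, and whether strand was used in counting is unknown. RAD51C (2562 nt) had 0.030 ± 0.09 in MDA-MB-231 and fell in MDA-MB-468 (-0.39 ± 0.07, adjusted p = 0.00038, difference -0.42 ± 0.11, adjusted p = 0.00605). RAD51B (1559 nt, 0.080 ± 0.12 and -0.33 ± 0.16) and RAD51D (canonical transcript of 9966 nt, 0.17 ± 0.09 and 0.056 ± 0.08) were called in neither line.

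Both RAD54 motor proteins, which drive the search for the matching sequence, fell in MDA-MB-231 and 1 of them in MDA-MB-468. RAD54L (3078 nt, chr1:46712133-46744152) counted 231.5, 304, 272 and 258 against 177, 189, 210 and 184 in MDA-MB-231 (-0.48 ± 0.09, adjusted p = 0.00101), without overlap. In MDA-MB-468 it counted 508, 458, 567 and 516 against 527, 458, 540 and 508. Those groups covered nearly the same range (-0.011 ± 0.07, adjusted p = 0.913), and the difference between lines was 0.47 ± 0.12 (adjusted p = 0.00616). RAD54B (3074 nt) fell in both lines by nearly the same amount (-0.35 ± 0.10 and -0.34 ± 0.06, adjusted p = 0.0197 and 0.0003). However, the exons of all its annotated transcripts share 3511 bases with FSBP on the same strand, so its counts are uncertain.

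The Fanconi core complex, which recognizes the cross-link and carries the ubiquitin ligase, had 2 of 8 members lower in MDA-MB-231, and 1 lower and 1 higher in MDA-MB-468. In MDA-MB-468 that is 12.5% each way, under the 22.7% of all genes tested that fell and the 24.9% that rose. FANCA (5452 nt, 43 exons, chr16:89793091-89883385) counted 507, 516, 513 and 475 against 334, 419, 351 and 353 in MDA-MB-231 (-0.47 ± 0.07, adjusted p = 0.00011). It counted 565, 479, 552 and 572 against 498, 568, 506 and 502 in MDA-MB-468 (-0.062 ± 0.06, adjusted p = 0.445), where the groups overlapped, and the lines differed (0.41 ± 0.10, adjusted p = 0.00505). FANCE, the subunit that binds FANCD2 (2576 nt), rose in MDA-MB-468 from 329, 320, 347 and 340 to 426, 418, 445 and 443 (0.37 ± 0.06, adjusted p = 3.6e-05). Its MDA-MB-231 counts of 590, 603, 510 and 581 against 559, 503, 527 and 546 overlapped (-0.096 ± 0.06, adjusted p = 0.323), and the difference was 0.47 ± 0.08 (adjusted p = 0.00014). FANCG (2556 nt, chr9:35073832-35080001) counted 658, 655, 685 and 610.7 against 584, 572, 532 and 610.6 in MDA-MB-231 (-0.18 ± 0.05, adjusted p = 0.0303), and 1592, 1515, 1669 and 1624 against 1643, 1511, 1654 and 1595 in MDA-MB-468 (0.00049 ± 0.04, adjusted p = 0.993). The highest high-glucose sample of MDA-MB-231 lay just under the lowest low-glucose sample, and the groups of MDA-MB-468 overlapped.

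Of the remaining core genes, 1 was called in 1 line. FANCC (4592 nt) had -0.11 ± 0.07 in MDA-MB-231 and fell slightly in MDA-MB-468 (-0.14 ± 0.05, adjusted p = 0.0291). FANCL, the ligase subunit itself (1658 nt), had -0.026 ± 0.12 and -0.12 ± 0.06. FANCB (3017 nt, -0.27 ± 0.21 and -0.29 ± 0.18) and FANCM, the translocase that anchors the complex (7131 nt, -0.23 ± 0.09 and -0.14 ± 0.11), lay below 0 in both lines without passing the test. FANCF, an adaptor encoded by a single exon (3291 nt), had 0.12 ± 0.09 and 0.044 ± 0.09.

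FANCD2 and FANCI, the pair that receives the ubiquitin, and BRIP1, the helicase that binds BRCA1, all fell in both lines. FANCD2 (5096 nt, 44 exons, chr3:10068054-10143616) counted 345, 363, 331 and 373 against 235, 286, 274 and 231.1 in MDA-MB-231 and 546, 550, 550 and 516 against 482, 473, 491 and 447 in MDA-MB-468. Its log2 fold changes were -0.46 ± 0.08 (adjusted p = 0.00046) and -0.19 ± 0.05 (adjusted p = 0.00534), with no overlap in either line. FANCI (4733 nt, 38 exons, chr15:89787176-89860492) counted 723, 845, 795 and 782 against 598, 600, 564 and 535 (-0.45 ± 0.06, adjusted p = 2.1e-05), and 1465, 1458, 1389 and 1476 against 1166, 1173, 1222 and 1131 (-0.30 ± 0.04, adjusted p = 6.3e-06). BRIP1 (8182 nt, 20 exons, chr17:59756500-59940920) counted 463, 444, 492 and 498 against 308, 267, 383 and 348 in MDA-MB-231 (-0.55 ± 0.09, adjusted p = 0.00029). In MDA-MB-468 it counted 403, 451, 413 and 371 against 336, 304, 269 and 287 (-0.45 ± 0.08, adjusted p = 0.00012). For FANCI and BRIP1 the difference between the lines did not pass the test (0.15 ± 0.07 and 0.093 ± 0.14), and for FANCD2 it did (0.27 ± 0.09, adjusted p = 0.0337).

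The BLM dissolution complex takes joined DNA molecules apart without crossover. BLM, its helicase (5240 nt, 22 exons, chr15:91260577-91359396), had the largest change of all members in MDA-MB-231 in the main fit, from 176, 177, 187 and 222 to 131, 125, 120 and 128 (-0.58 ± 0.09, adjusted p = 0.00027), which means that it fell by 33.3%. Over 22 alternatives the BLM change ran from -0.62 to -0.51 and that of BRIP1 from -0.63 to -0.46, so the rank is not firm. In MDA-MB-468 the BLM counts of 228, 236, 180 and 189 against 202, 179, 199 and 198 overlapped (-0.088 ± 0.09, adjusted p = 0.464), and the lines differed (0.50 ± 0.13, adjusted p = 0.00873). TOP3A, the topoisomerase of the complex (6596 nt), had -0.13 ± 0.05 in MDA-MB-231 (adjusted p = 0.0769) and fell in MDA-MB-468 (-0.42 ± 0.06, adjusted p = 5.2e-05). The small subunits RMI1 (3300 nt, -0.20 ± 0.07 and -0.013 ± 0.04) and RMI2 (1427 nt, -0.15 ± 0.09 and 0.24 ± 0.10) were uncalled in MDA-MB-231, and RMI2 had the shortest transcript of all members and passed the test in MDA-MB-468 by a narrow margin (adjusted p = 0.0489). That call of RMI2 was kept in 4 of 22 alternatives and was lost with edgeR, with DESeq2, with every other scaling and with the replicate block (adjusted p up to 0.172). All 4 subunits differed in response between the lines, 3 being higher in MDA-MB-468 and TOP3A lower (-0.29 ± 0.09, adjusted p = 0.0168).

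The nucleases that cut joined molecules were called in MDA-MB-468 and not in MDA-MB-231, without a call in the test of the difference for any of the 3. EME1, the partner subunit of MUS81 (2330 nt, chr17:48450581-48458844), counted 56.1, 71.9, 56.0 and 46.7 against 33.1, 45.9, 42.3 and 27.0 in MDA-MB-468 (-0.64 ± 0.19, adjusted p = 0.0116), the groups being separated by less than 1 normalized read. In MDA-MB-231 it counted 88.6, 117, 87.2 and 87.4 against 65.2, 75.7, 73.4 and 96.1, which overlapped (-0.29 ± 0.14, adjusted p = 0.184). SLX4, the scaffold of these nucleases (7315 nt), had -0.22 ± 0.08 (adjusted p = 0.0663) and -0.39 ± 0.08 (adjusted p = 0.0008). MUS81, the catalytic subunit (2364 nt), had -0.0066 ± 0.06 and rose in MDA-MB-468 (0.21 ± 0.05, adjusted p = 0.00463), opposite to its partner EME1.

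Over all members, the response differed between lines for 18 of 38 genes, 10 of which were higher in MDA-MB-468 and 8 lower, where 17.0% and 13.9% of the 17115 genes tested differed in these directions. The 10 were XRCC3, BLM, RAD54L, FANCE, BARD1, FANCA, RMI2, FANCD2, FANCG and RMI1, of which 7 were called lower in MDA-MB-231. FANCE, RMI1 and RMI2 lay below 0 there without a call. RMI1 came close to one (limma, adjusted p = 0.0537), and its glucose groups did not overlap in MDA-MB-231. The same lack of overlap held there for SLX4 and TOP3A, also uncalled (limma, adjusted p = 0.0663 and 0.0769). The share of all genes without overlap was not counted. The 8 were ATM, RAD51C, PALB2, XRCC2, RAD50, MRE11, BRCA2 and TOP3A, all of which had fallen in MDA-MB-468. This contrast uses the samples of both within-line contrasts and is no independent repeat of them.

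Several calls were lost when 1 library was left out, which also leaves fewer samples in the test. Over all genes, 2245 were called in MDA-MB-231 with every library and 1629 to 2389 with 1 left out. The same counts were 7495 and 6759 to 7398 in MDA-MB-468, and 5288 and 4913 to 5467 for the difference between lines. In MDA-MB-231, RAD50, XRCC2, XRCC3 and FANCG each lost the call when any of 6 of the 8 libraries was left out, with adjusted p up to 0.124, 0.117, 0.103 and 0.106. The exceptions, whose omission kept the call, were low-glucose replicate 4 and high-glucose replicate 1 for RAD50, low-glucose replicate 3 and high-glucose replicate 2 for XRCC2, and replicate 4 of both groups for XRCC3 and FANCG. MRE11 lost its MDA-MB-231 call without low-glucose replicate 1 or 4 or high-glucose replicate 2 or 4 (adjusted p up to 0.105), RAD54B without low-glucose replicate 1 or 3 or high-glucose replicate 2 (up to 0.0643) and RBBP8 without high-glucose replicate 4 (0.051). In MDA-MB-468, RMI2 kept its call only without low-glucose replicate 3 or high-glucose replicate 4 (otherwise up to 0.157), and FANCC only without low-glucose replicate 2 or 4 or high-glucose replicate 2 (otherwise up to 0.0952). For the difference between lines, leaving out 1 library ended the call in 14 of 16 cases for BRCA2, 12 for FANCG, 11 for RMI1, 10 for XRCC2, 8 for RMI2 and 7 for FANCD2, with adjusted p up to 0.0918, 0.0946, 0.0906, 0.0824, 0.0782 and 0.0716. That of BRCA2 was kept without MDA-MB-231 low-glucose replicate 4 or MDA-MB-468 high-glucose replicate 2. FANCG kept it without replicate 4 of either MDA-MB-231 group, MDA-MB-468 low-glucose replicate 3 or high-glucose replicate 2, and RMI1 without MDA-MB-231 low-glucose replicate 4, high-glucose replicates 1 to 3 or MDA-MB-468 low-glucose replicate 3. XRCC2 kept it without MDA-MB-231 low-glucose replicates 2 or 4, high-glucose replicates 3 or 4, or MDA-MB-468 high-glucose replicates 1 or 2. RMI2 lost it without MDA-MB-231 low-glucose replicates 2 or 3, high-glucose replicates 1 or 4, MDA-MB-468 low-glucose replicate 2 or high-glucose replicates 1 to 3. FANCD2 lost it without MDA-MB-231 low-glucose replicates 2 or 4, high-glucose replicates 1 or 4, MDA-MB-468 low-glucose replicate 4 or high-glucose replicates 1 or 3. No direction changed in these cases.

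In low glucose 21 members were higher and 7 lower in MDA-MB-468 than in MDA-MB-231, where 45.0% of the 17115 genes tested were higher and 40.4% lower, and the members' median log2 difference was 0.41 beside 0.081 for all genes tested. FANCL showed the largest excess, with 97.2, 111.6, 86.05 and 92.5 normalized reads in MDA-MB-231 and 459, 407, 408 and 476 in MDA-MB-468 (2.17 ± 0.09, adjusted p = 1.2e-13, chr2:58386378-58468545). XRCC3 was the reverse, at 360, 371, 413 and 335 against 101, 65.3, 77.9 and 86.2 (-2.16 ± 0.12, adjusted p = 1.7e-11). CHEK2 (chr22:29083731-29138410) counted 75.7, 62.6, 69.3 and 98.7 against 180, 211, 196 and 226 (1.41 ± 0.12, adjusted p = 3.4e-09). FANCG was higher in MDA-MB-468 by 1.29 ± 0.05 (adjusted p = 2.8e-14), with low-glucose samples from 1515 to 1669 against 610.7 to 685 in MDA-MB-231. No pair of groups overlapped in these 4 genes. BRCA1, RAD51C, FANCC, RAD54B and RMI1 were also higher by more than 1 on the log2 scale in MDA-MB-468 (1.09, 1.11, 1.15, 1.19 and 1.26), and FANCM was lower (-1.07). BRIP1 (-0.21 ± 0.10) and TOP3A (-0.15 ± 0.06) were lower with overlapping groups. BRIP1 lost that call without any of 10 libraries (adjusted p up to 0.142; kept without low-glucose replicate 2 of either line, MDA-MB-231 high-glucose replicates 2 or 3, or MDA-MB-468 high-glucose replicates 1 or 3). TOP3A lost it without MDA-MB-231 low-glucose replicate 3 or MDA-MB-468 low-glucose replicates 1 or 2 (up to 0.133).

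Levels of different genes were compared only per kb of canonical transcript. In MDA-MB-231 in low glucose they ran from 15.6 ± 4.58 normalized reads per kb (SD, n = 4) for FANCB to 328 ± 14.02 for NBN, followed downward from NBN by FANCG (255 ± 12.04), RBBP8 (254 ± 2.15) and FANCE (222 ± 16.2). FANCG and RBBP8 did not differ beyond their spread. In MDA-MB-468 in low glucose they ran from 16.5 ± 1.60 for FANCM and 17.5 ± 3.72 for FANCB, which did not differ beyond their spread, to 626 ± 25.4 for FANCG, followed by RBBP8 (435 ± 14.6), CHEK1 (351 ± 7.78) and NBN (339 ± 17.4). BRCA1 and BRCA2 stood at 49.1 ± 3.51 and 35.2 ± 3.90 in MDA-MB-231 and at 104 ± 7.46 and 47.8 ± 1.11 in MDA-MB-468. RAD51D stood low in both lines (17.02 ± 1.29 and 18.9 ± 0.96), with a canonical transcript of 9966 nt in this annotation.

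**Figure D3:**
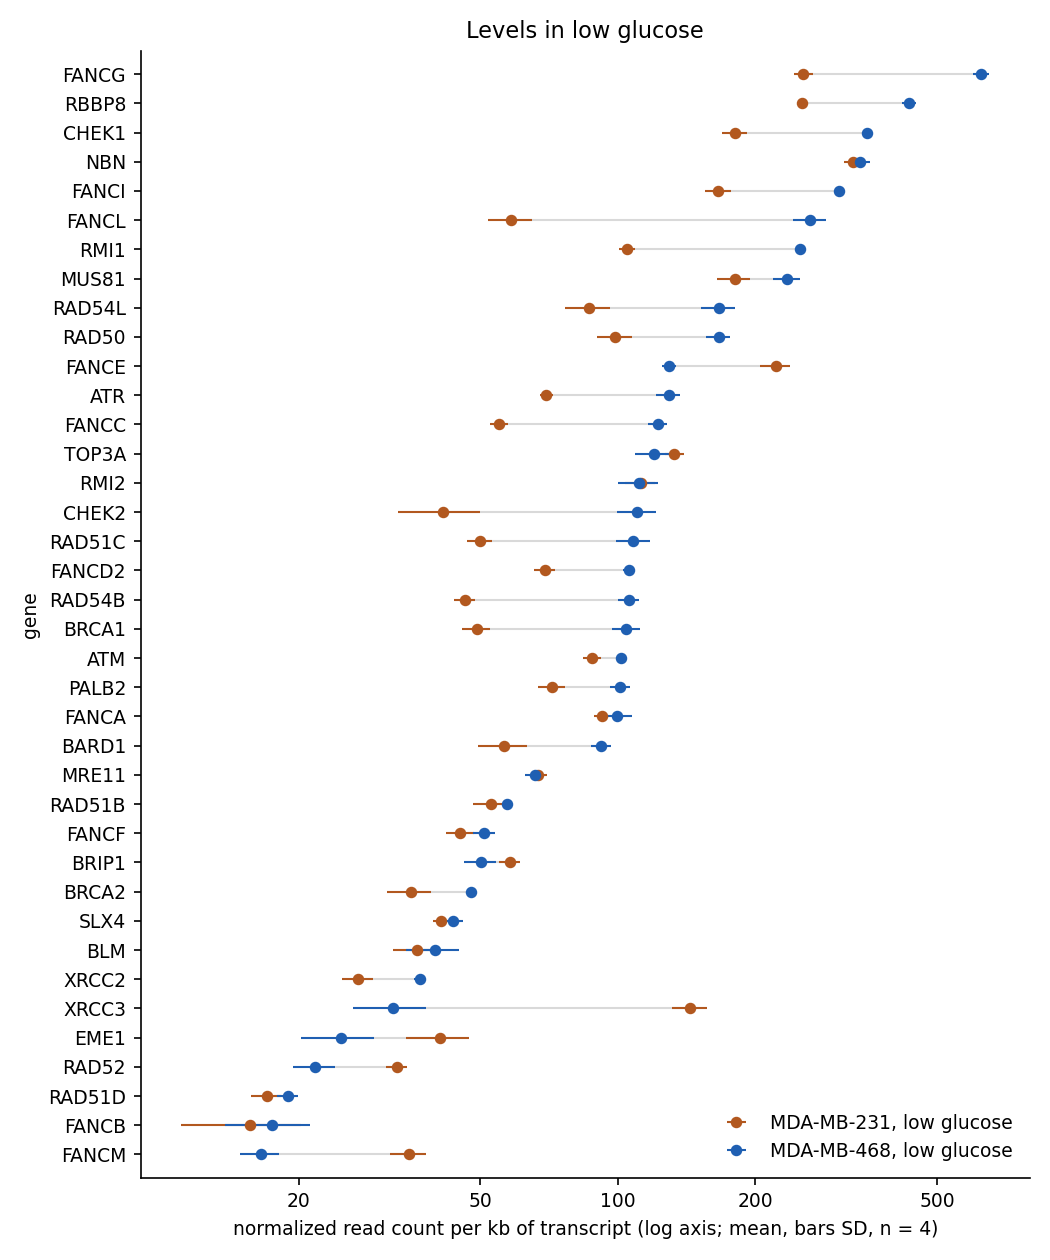
Normalized read count per kb of canonical transcript (horizontal log axis; mean, bars SD, n = 4) of the 38 members in low glucose in MDA-MB-231 (brown) and MDA-MB-468 (blue), ordered by the level in MDA-MB-468. Most blue points lie right of the brown ones, FANCL shows the widest gap in that direction, and XRCC3, FANCM and FANCE are among those that lie the other way.

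Transcript length moved with the glucose response over all genes, and the members are long. Their canonical transcripts ran from 1427 nt (RMI2) to 12915 nt (ATM) with a median of 4360 nt, beside a median of 2986 nt over all genes tested in either line. Across genes, which are not independent replicates, the rank correlation (Spearman's rho) of length with the glucose response came to -0.19 over 14289 genes of MDA-MB-231 and to -0.15 over 15079 genes of MDA-MB-468. Over the 38 members it was -0.20 and -0.40, all points of a line resting on the same 8 libraries. With all genes binned in 4 equal parts by length, in the bin of the longest transcripts, which held 15 members in each line, the median log2 fold change of all genes was -0.041 for MDA-MB-231 and -0.071 for MDA-MB-468, and that of the members was -0.23 and -0.19. In the bin of the shortest, with 3 members, the medians of all genes were 0.043 and 0.072. After a smooth length trend was removed from each library, 13 members were lower and 1 higher in MDA-MB-231, and 17 lower and 2 higher in MDA-MB-468, with member medians of -0.18 and -0.10. Of all genes, 8.60% were then lower and 6.80% higher in MDA-MB-231, against 24.2% lower and 24.5% higher for MDA-MB-468. MRE11 and XRCC2 lost the call in MDA-MB-231 (adjusted p = 0.0752 and 0.0575), and RAD50, FANCC and RMI2 in MDA-MB-468 (adjusted p = 0.089, 0.0504 and 0.162), while FANCL and RAD51B gained one there. The 2 longest transcripts, ATM and BRCA2, had length-corrected changes of -0.62 and -0.60 in MDA-MB-468, and in MDA-MB-231 ATM had 0.013.

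**Figure D4:**
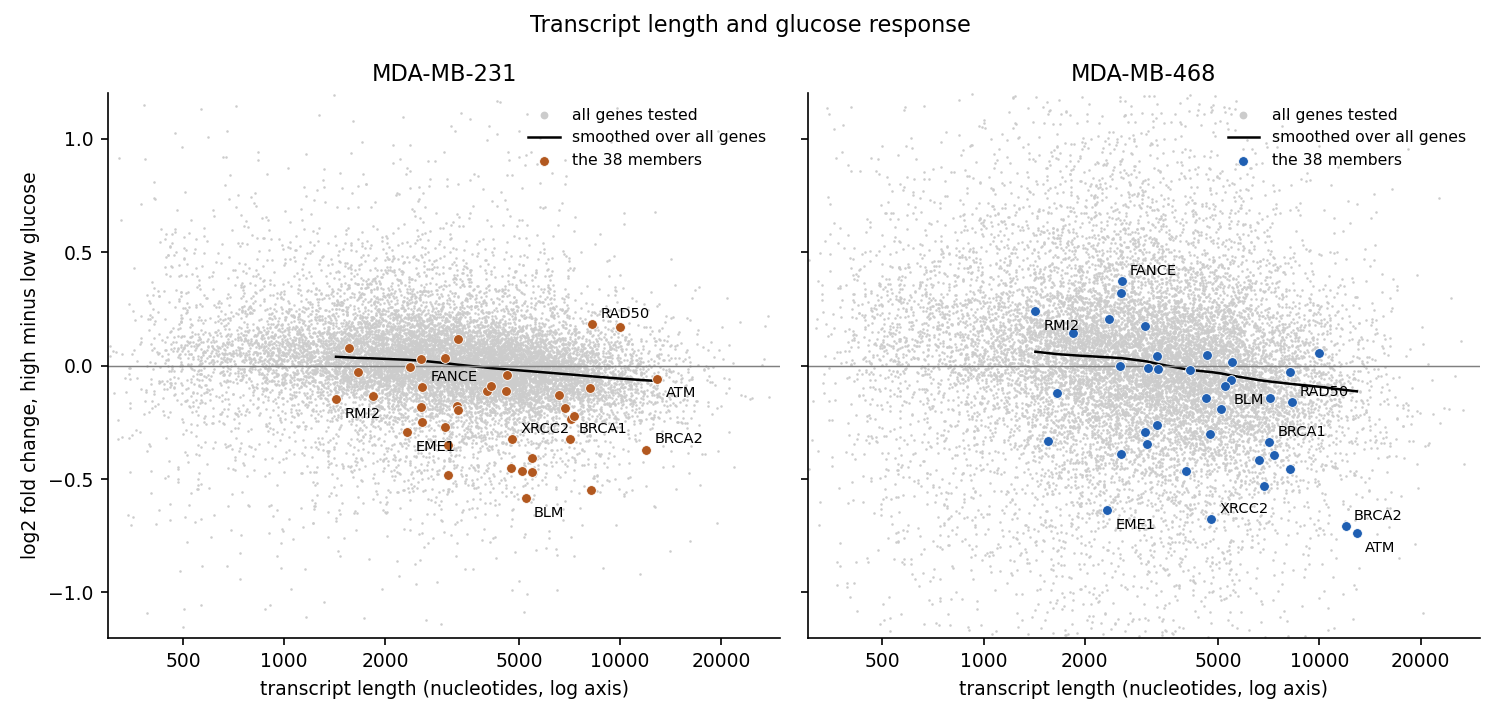
Transcript length in nucleotides (horizontal log axis) against log2 fold change in high against low glucose for all genes tested (grey), with the smoothed trend over all genes (black line) and the 38 members (coloured), in MDA-MB-231 (left) and MDA-MB-468 (right). The trend declines with length in both lines, most members lie below it, and 62 and 377 genes beyond the vertical range are not drawn.

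Of 59 other genes of the same pathways, 18 (30.5%) fell and 2 (3.39%) rose in MDA-MB-231, with a median log2 fold change of -0.052, where 9.37% of all genes tested fell and 5.71% rose. In MDA-MB-468, 26 (44.1%) fell and 14 (23.7%) rose, with a median of -0.094, where 22.7% of all genes tested fell and 24.9% rose. The largest changes in MDA-MB-231 were falls of CLSPN, the adaptor that activates CHEK1 (-0.55 ± 0.07), the resection nuclease EXO1 (-0.52 ± 0.07), the junction resolvase GEN1 (-0.43 ± 0.08) and UBE2T, the ubiquitin-conjugating enzyme of the Fanconi pathway (-0.41 ± 0.07). In MDA-MB-468 the largest changes were a rise of CENPS (0.83 ± 0.09), which binds DNA together with FANCM, falls of the recombination cofactor SFR1 (-0.79 ± 0.11) and the checkpoint clamp gene HUS1 (-0.75 ± 0.08), and a rise of SLX1A (0.70 ± 0.25, adjusted p = 0.0314), whose near-identical copy SLX1B makes its counts uncertain.

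Cell cycle genes were read beside the members. All 20 of 20 proliferation markers and 29 of 31 S phase genes fell in MDA-MB-231, with median log2 fold changes of -0.46 and -0.34, where 9.37% of all genes tested fell. In MDA-MB-468, 9 proliferation markers rose and 1 fell (median 0.082), and 11 S phase genes rose and 9 fell (median 0.0065), where 24.9% of all genes tested rose and 22.7% fell. The summed level of the proliferation markers ran from 50936 to 52573 normalized reads in low and from 36429 to 36683 in high glucose in MDA-MB-231, against 30773 to 31418 and 32584 to 33294 in MDA-MB-468. For the S phase genes these ranges were 29512 to 29808 and 22895 to 23203 in MDA-MB-231, and 52146 to 53632 and 53961 to 55058 in MDA-MB-468, with no gene of either list at 0. MKI67, the classic proliferation marker, fell in both lines (-0.62 ± 0.03 and -0.18 ± 0.04), and CDK1, CENPF and NUSAP1 fell in MDA-MB-231 (-0.57, -0.56 and -0.55). The cell division genes BIRC5, PLK1, CCNA2 and UBE2C rose in MDA-MB-468 (0.83, 0.71, 0.40 and 0.19) and fell in MDA-MB-231 (-0.50, -0.45, -0.45 and -0.49). Among the S phase genes, CCNE2, TYMS, RRM2 and CHAF1B fell in MDA-MB-231 (-0.78, -0.65, -0.61 and -0.56), while in MDA-MB-468 the replication helicase genes MCM5 and GINS2 rose (0.49 and 0.40) and GINS4 and the primase gene PRIM2 fell (-0.46 and -0.44). The difference between lines was higher in MDA-MB-468 for 20 of 20 proliferation markers and 24 of 31 S phase genes, beside 17.0% of all genes tested. The part of the cell cycle in the members' changes was not tested.

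**Figure D5:**
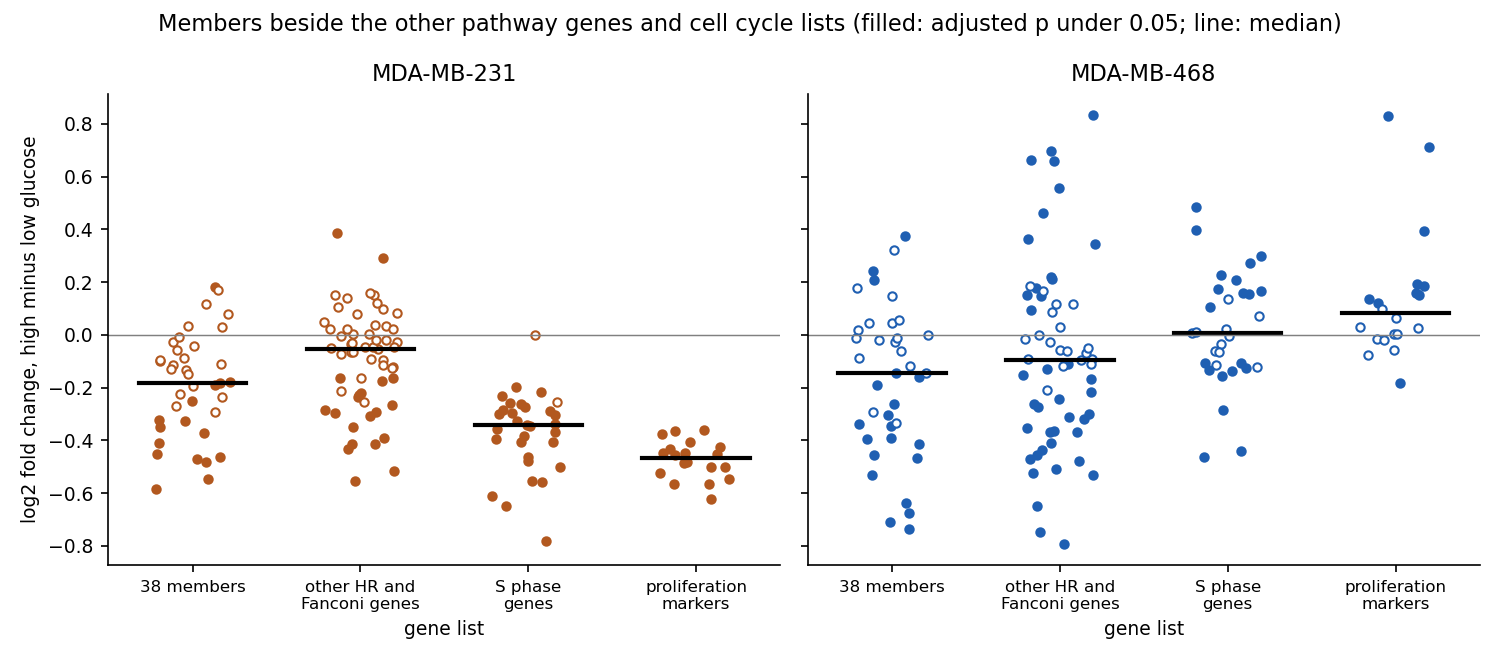
Log2 fold change in high against low glucose (vertical axis) of every gene in 4 lists, the 38 members, 59 other homologous recombination (HR) and Fanconi genes, 31 S phase genes and 20 proliferation markers, in MDA-MB-231 (left) and MDA-MB-468 (right); filled points passed an adjusted p under 0.05 and lines are medians. In MDA-MB-231 all 4 medians lie below 0, from -0.052 to -0.46, whereas in MDA-MB-468 the member median of -0.14 lies below those of the cell cycle lists at 0.0065 and 0.082.

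Counts of some other members are uncertain because their exons overlap another gene in the annotation. The opposite-strand overlaps were the longest for FANCA with ZNF276 (2409 bases) and ATR with EIF2AK1P1 (2048 bases), followed by NBN, RAD54L and MUS81 with OSGIN2, LRRC41 and CFL1 (827, 813 and 759 bases). Members with short transcripts were also affected, among them some named above for large changes. FANCL (1658 nt) shares 572 bases with VRK2, EME1 (2330 nt) 541 with LRRC59 and CHEK2 (1844 nt) 293 with HSCB, all on the opposite strand. Shared bases were counted over the exons of all annotated transcripts of a gene. They are therefore not a share of the canonical length in nt. On the same strand RAD51D shares 905 bases with another annotated gene, RAD52 shares 233 and BRCA1 shares 120. The share of reads that came from the neighbours was not tested.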

How the data were processed

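Each of 16 samples was 1 RNA sequencing library. The 38 members were given by name, and members, gene lists and tests were chosen with earlier results of these data known. The study's description of its RNA sequencing, written for tumors, xenografts and cells together, names Trimmomatic, TopHat, hg19, Ensembl annotation, DESeq2, edgeR and, for tumors, a stranded kit, with HiSeq sequencing for the cell lines, as in the labels. The submitters' processing notes list hg38 in place of hg19. The counting program and its strand setting are not given in the sources used here. The authors deposited a normalized signal per gene that behaved as read counts divided by 1 size factor per library: 100% of values were whole multiples of 1 read (tolerance 0.01 reads, largest deviation 5.8e-05), and whole reads were recovered from them. Symbols were found for 16633 of 18332 gene IDs and canonical transcript lengths for 17418. Gene coordinates are 1-based, from a GENCODE annotation on GRCh37.

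Tests used limma 3.58.1 in R 4.3.3 (eBayes with trend, two-sided) on log2(value + 1), for genes with at least 0.5 CPM in 2 samples of the fit, with Benjamini-Hochberg adjustment over all genes tested and a threshold of 0.05. Fold changes on this scale understate the change of low genes. Within-line fits used 8 samples, and the difference of response and the comparison of lines used all 16. On recovered reads edgeR 4.0.16 (quasi-likelihood) called 2244 genes for MDA-MB-231 (limma 2245) and 7484 for MDA-MB-468 (limma 7495), and DESeq2 1.42.0 called 2085 and 6632. A floor of 3 reads, given for scale and used in no test or filter, corresponds to 0.123 to 0.213 CPM per library and covers counting error only. Replicates differed by more than counting error (chi-square per gene 2.03 to 4.94). In MDA-MB-231 low glucose, pairs with replicate 4 had 3.68 to 4.94 and the other pairs 2.12 to 2.62. The highest pair elsewhere had 4.06, in MDA-MB-468 high glucose. Without that MDA-MB-231 library 2389 genes were called in the line, beside 2245 with every library. The tests were tried on simulated data.

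Every member is named. Values in every sample are given for BRCA1 and BRCA2, the 6 largest called changes per line whose groups do not overlap, the 4 largest called differences of response and the 4 largest between lines; from other lists up to 4 of the largest called changes per line are named. RAD50 and FANCE were added after their values were seen. Some genes are not reported here. Alternatives were other pseudocounts, filters, scalings, thresholds, length and GC corrections, a replicate block, all 16 samples in a fit, edgeR, DESeq2 and leaving out each library.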

Additional observations from a re-analysis of the deposited data

Results flagged for a closer look

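In 14 of the 152 combinations of a member and a group, 1 of the 4 samples stood apart from the other 3 beyond Dixon's 95% critical value for the gap as a share of the group's range, and chance alone gives about 1 in 20 groups. The values are normalized read counts. Standing high were ATM in MDA-MB-231 low glucose replicate 4 (1210, above the other 3 at 1104 to 1119), ATM in MDA-MB-468 high glucose replicate 2 (877, above the other 3 at 756 to 766), ATR in MDA-MB-468 low glucose replicate 2 (1150, above the other 3 at 1019 to 1026) and BARD1 in MDA-MB-231 low glucose replicate 4 (365, above the other 3 at 287 to 292). Also high were RBBP8 in MDA-MB-468 low glucose replicate 2 (1495, above the other 3 at 1391 to 1407), RBBP8 in MDA-MB-468 high glucose replicate 1 (1238, above the other 3 at 1165 to 1175), RAD52 in MDA-MB-231 low glucose replicate 1 (107, above the other 3 at 95.6 to 97.2), FANCA in MDA-MB-468 high glucose replicate 2 (568, above the other 3 at 498 to 506) and EME1 in MDA-MB-231 low glucose replicate 2 (117, above the other 3 at 87.2 to 88.6). Standing low were RAD54B in MDA-MB-231 low glucose replicate 4 (131, below the other 3 at 145 to 148), FANCF in MDA-MB-468 low glucose replicate 4 (154, below the other 3 at 171 to 174), FANCD2 in MDA-MB-468 low glucose replicate 4 (516, below the other 3 at 546 to 550), RMI2 in MDA-MB-468 low glucose replicate 2 (135, below the other 3 at 163 to 169) and MUS81 in MDA-MB-231 high glucose replicate 4 (401, below the other 3 at 429 to 433). Low-glucose replicate 4 of MDA-MB-231 and low-glucose replicate 2 of MDA-MB-468 each accounted for 3 of the 14. 

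The glucose response differed between the lines for 18 members by limma's interaction contrast at an adjusted p under 0.05, given as MDA-MB-468 minus MDA-MB-231 on the log2 scale. It was higher in MDA-MB-468 for XRCC3 (0.57), BLM (0.50), RAD54L (0.47), FANCE (0.47), BARD1 (0.43), FANCA (0.41), RMI2 (0.39), FANCD2 (0.27), FANCG (0.18) and RMI1 (0.18). It was lower for ATM (-0.68), RAD51C (-0.42), PALB2 (-0.35), XRCC2 (-0.35), RAD50 (-0.34), MRE11 (-0.34), BRCA2 (-0.34) and TOP3A (-0.29). No cause of these differences was tested.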

How the results depend on the processing

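Of 4027 alternative values of single members, 3731 kept direction and call, 190 lost the call, 33 gained one and 73 turned in sign, each from a value that was not called. Of these, 1 passed the test after turning, NBN in the comparison of lines under the GC correction (adjusted p = 0.00807). At an adjusted p under 0.01, 9 members were called in MDA-MB-231 (9 lower, 0 higher), and for the difference between lines 9 (4 higher, 5 lower). Over all genes at that threshold, 772 of 14884 were lower and 347 higher in MDA-MB-231. For the difference, 2071 of 17115 were higher and 1466 lower. With each library left out, the count of members called in MDA-MB-231 ran from 10 (without low-glucose replicate 1) to 15, the count higher from 0 to 1 and the count lower from 10 to 14, and the members with a higher difference from 6 to 10. The call of RAD50 as higher was lost there without any of 6 libraries. Leaving out low-glucose replicate 2 of MDA-MB-231 or high-glucose replicate 1 or 3 of MDA-MB-468 gave the count of 6. Samples with the same replicate number showed little shared deviation (mean correlation -0.029 for MDA-MB-231, 0.026 for MDA-MB-468). For differing numbers the means were 0.0097 and -0.0087. Such correlations cannot tell whether samples of the same number were handled together, so the replicate block is given as an alternative. With the replicate block, 11 members were lower and 0 higher for MDA-MB-231, 17 lower with 2 higher for MDA-MB-468, and 1 of the other pathway genes was higher in MDA-MB-231, as with DESeq2 (1). Over all genes the block gave 1053 lower and 571 higher among 14884 in MDA-MB-231, and 3528 lower and 3855 higher among 15757 in MDA-MB-468. With the length correction, 2 proliferation markers fell in MDA-MB-468. DESeq2 called 12 members lower and 1 higher for MDA-MB-231, and 16 and 2 for MDA-MB-468. Over all genes it called 1272 lower and 813 higher among 14884 in MDA-MB-231, and 3212 lower and 3420 higher among 15757 in MDA-MB-468. The log2 values that turned in sign follow, and the cause was not tested. For the MDA-MB-231 response, the sign turned under the length correction with or without the replicate block ATM 0.0134, and with a library left out for FANCL -0.0800 to 0.0436, MUS81 -0.0460 to 0.0442, RAD51C -1.7e-05 to 0.0823, RAD52 -0.00368 to 0.0715 (range). For the MDA-MB-468 response, the sign turned under the length correction with or without the replicate block ATR 0.0485, FANCG -0.0447, under the GC correction ATR 0.0248, CHEK1 0.0218, FANCG -0.0771, RMI1 0.0762, under quantile normalization BARD1 -0.00246, FANCG -0.00363, under median-of-ratios scaling FANCG -0.00685, under TMM scaling FANCG -0.00395, under edgeR FANCG -0.00518, under DESeq2 FANCG -0.00824, and with a library left out for ATR -0.060 to 0.0143, BARD1 -0.0324 to 0.0529, FANCG -0.0254 to 0.0279, RAD54L -0.0633 to 0.0394, RMI1 -0.0280 to 0.00343 (range). For the difference of response, the sign turned under the length correction with or without the replicate block BRCA1 0.0153, under the GC correction BRCA1 0.0175, FANCB 0.0455, under pseudocount 5 RAD54B -0.00183, under quantile normalization RAD54B -0.0473, FANCB 0.0165, under edgeR FANCB 0.00258, under DESeq2 FANCB 0.00464, and with a library left out for BRCA1 -0.0624 to 0.0276, FANCB -0.172 to 0.156, RAD54B -0.0423 to 0.0502 (range). For the comparison of lines, the sign turned under the length correction with or without the replicate block MRE11 0.0188, RAD51B -0.0674, under the GC correction NBN -0.111, RAD51B -0.0421, FANCF -0.00389, BLM -0.0560, under quantile normalization RAD51B -0.0996, FANCB -0.156, and with a library left out for MRE11 -0.0475 to 0.00808, RMI2 -0.0581 to 0.0572 (range).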
